A study of Mus musculus with 12 samples.

Results

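Extracellular matrix is cut by the matrix metalloproteinases (MMPs) and by the ADAMTS proteases, and tissue inhibitors of metalloproteinases (TIMPs) block them. The protein-coding genes of these families, with the ADAMTS-like genes (ADAMTSLs), were followed by RNAseq through differentiation of a mouse mesenchymal line and through treatment with FG-4592. Members were all genes named Mmp, Adamts, Adamtsl or Timp with a number whose count exceeded 10 in 3 or more of the 12 libraries. Of 50 such genes among 56350 annotated genes, 33 passed: 13 of 22 MMPs, 12 of 19 ADAMTSs, 5 of 5 ADAMTSLs and 3 of 4 TIMPs. The other 17, Timp4 among them, were under the minimum. Adamtsl1 and Mmp27 passed only through the 3 treated osteocyte libraries. Adamts13 and Mmp24 passed only through treated libraries of both cell types, and Adamts15 and Adamtsl2 only through osteocyte libraries. These genes being higher there follows from how they were admitted, and their calls in that direction are no support. Mmp9 exceeded 10 counts in 6 osteocyte libraries and 1 other library, so that the same holds for its being higher in osteocytes.

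MPC2 is 1 clone of a conditionally immortalized murine mesenchymal stem cell line. Here MSCs means MPC2 kept in growth medium at 33 °C, and osteocytes means MPC2 after 3 weeks at 37 °C with beta-glycerophosphate and ascorbic acid. Temperature, medium and time therefore changed together with differentiation. Each cell type received DMSO vehicle or 50 µM FG-4592 (Roxadustat), an inhibitor of the HIF prolyl hydroxylases, for 48 hours, which gave 4 conditions of 3 libraries. No source used here says that the 3 libraries of a condition came from separate cultures, so that p-values measure the spread between these libraries, which may be technical.

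MMPs and ADAMTSs are secreted or membrane-bound zinc endopeptidases, most of them made as inactive proenzymes. Bone matrix is mainly type I collagen, which collagenases such as MMP13 and the membrane-anchored MMP14 can cut and which gelatinases such as MMP2 and MMP9 degrade further once it is unwound. ADAMTS proteases trim procollagens or cleave proteoglycans, ADAMTSLs resemble them without a catalytic domain, and TIMPs bind the active site of the proteases. FG-4592 keeps HIF proteins from being hydroxylated and degraded, and HIF binds DNA at sites with the core ACGTG or GCGTG.

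Library totals ranged from 52829185 to 68108470 counts, of which the 33 members took 0.505% to 0.672%. The 5 genes of a HIF target list that were found by symbol are a check of the treatment, and the 6th, Ca9, was not matched. Bnip3, Pdk1, Slc2a1 and Vegfa were called higher in both cell types after FG-4592, and their levels did not overlap with those of vehicle. Egln3, a HIF prolyl hydroxylase, was called in osteocytes and was at 0 to 0.0217 TPM in treated MSCs. Of 11 osteoblast and osteocyte markers, Dmp1, Phex and Bglap were called higher in vehicle-treated osteocytes than MSCs. Runx2, Sp7 and Spp1 were higher under the FDR alone, and Ibsp (log2 difference -0.74 ± 0.18 (SE), FDR = 0.00289) and Alpl (-0.33 ± 0.10 (SE), FDR = 0.014) were lower under it. Sost was at 0 in all 12 libraries, Pdpn reached at most 0.0309 TPM and Mepe reached at most 0.0743 TPM. Of 7 mesenchymal progenitor markers, Thy1 was likewise near 0, and of the other 6 Nt5e was called higher in vehicle-treated osteocytes than MSCs (log2 difference 5.34 ± 0.16 (SE), FDR = 1.32e-13) and Ly6a lower (-1.95 ± 0.10 (SE), FDR = 8.66e-11). All 4 adipocyte markers were called higher in osteocytes (background 9.83% of all genes with vehicle). Their sum was 23.4 to 26.9 TPM in vehicle-treated MSCs and 3714 to 5127 TPM in vehicle-treated osteocytes. The part of these cells in the results was not tested, and in bulk RNA fewer cells of a type and less RNA per cell cannot be told apart.

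The DNA just before the start of 5 members is shown first, namely the inhibitors that rose in both cell types (Timp3 and Timp1), the proteases called lower in both that had a window (Adamts14 and Mmp15) and Mmp13, since HIF, which FG-4592 stabilises, binds such cores. The sequences are from RefSeq on GRCm38.p6 (mm10), and each stops before the first annotated base of the gene. Capitals mark ACGTG or GCGTG on either strand.
Timp3: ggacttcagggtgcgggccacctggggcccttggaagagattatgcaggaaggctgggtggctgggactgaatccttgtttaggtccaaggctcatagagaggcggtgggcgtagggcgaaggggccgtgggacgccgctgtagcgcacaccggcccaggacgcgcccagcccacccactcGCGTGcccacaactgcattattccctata
Timp1: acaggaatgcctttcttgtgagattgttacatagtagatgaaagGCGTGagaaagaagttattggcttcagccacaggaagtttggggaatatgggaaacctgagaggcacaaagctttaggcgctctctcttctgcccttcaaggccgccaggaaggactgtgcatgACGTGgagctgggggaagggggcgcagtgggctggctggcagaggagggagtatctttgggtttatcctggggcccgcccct
Adamts14: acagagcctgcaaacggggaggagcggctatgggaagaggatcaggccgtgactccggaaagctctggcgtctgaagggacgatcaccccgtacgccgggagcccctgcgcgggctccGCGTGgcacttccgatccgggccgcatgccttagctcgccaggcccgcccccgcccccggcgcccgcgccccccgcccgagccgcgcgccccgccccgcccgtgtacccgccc
Mmp15: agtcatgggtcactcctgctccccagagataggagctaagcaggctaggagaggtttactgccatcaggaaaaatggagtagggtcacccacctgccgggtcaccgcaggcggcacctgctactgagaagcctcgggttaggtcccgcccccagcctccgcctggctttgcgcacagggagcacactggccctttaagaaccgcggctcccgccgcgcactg
Mmp13: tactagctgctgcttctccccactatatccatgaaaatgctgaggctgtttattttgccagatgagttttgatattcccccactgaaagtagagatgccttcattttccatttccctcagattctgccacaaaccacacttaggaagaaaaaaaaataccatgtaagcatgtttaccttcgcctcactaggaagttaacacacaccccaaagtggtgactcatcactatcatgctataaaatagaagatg
The stretch of Timp3 is chr10:86300162-86300371, plus strand, and its GCGTG begins 69 bases before the RefSeq start. Timp1 (chrX:20869916-20870165, plus strand) has GCGTG at 206 and ACGTG at 82 bases before its start. Adamts14 (chr10:61273439-61273669, minus strand) holds GCGTG 132 bases before its start, and neither Mmp15 (chr8:95352046-95352267, plus strand) nor Mmp13 (chr9:7272264-7272513, plus strand) holds a core. The promoter table covered 21 members with 22 windows, each from 250 bases before to 50 bases after a start, and 11 windows (50%) held a core against 43.8% of all 32851 windows in the table. Of the members called after FG-4592 in either cell type, 6 had a window and 3 of these held a core, namely Timp3, Adamts14 and Mmp27. A match is a description of these letters and not evidence of a site in use, and a window without one says nothing about HIF at other distances.

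With TPM (counts per gene length, scaled to the same total in each library), levels can be compared between genes. Timp2 was the most abundant member, at 1634 ± 35.8 TPM (mean ± SD, n = 3) in vehicle-treated MSCs, and Mmp2 the most abundant protease, at 1207 ± 32 TPM in vehicle-treated osteocytes. They were followed, each in its highest condition, by Timp1 (1058 ± 80.8 TPM in treated MSCs), Mmp14 (846 ± 76 TPM in vehicle-treated osteocytes) and Timp3 (832 ± 41.3 TPM in treated MSCs). Mmp14 and Timp3 differed by less than their spread. Mmp13 came next, at 352 ± 33.4 TPM in treated osteocytes. Mmp11 reached 275 TPM, Adamts2 156 TPM, Adamts5 141 TPM, Mmp23 121 TPM, Adamtsl4 89.6 TPM and Mmp19 87.5 TPM in their highest conditions. Of the 33 members, 16 stayed under 10 TPM in every condition.

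**Figure D1:**
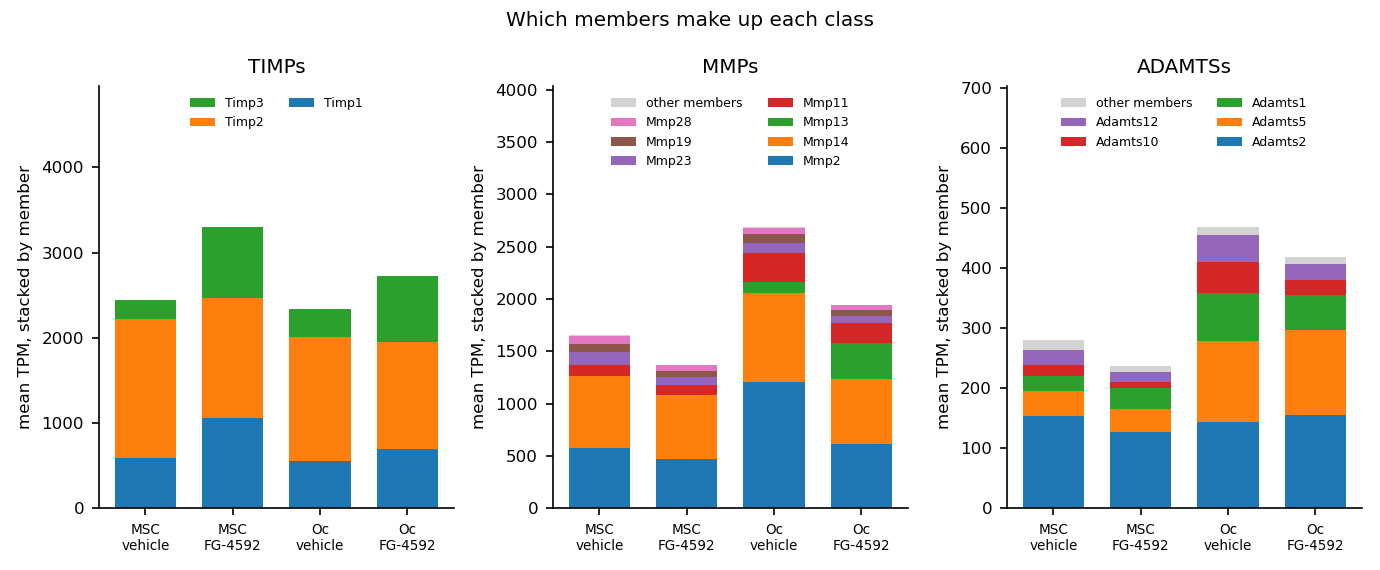
Mean TPM (vertical axis) of the members, stacked within TIMPs, MMPs and ADAMTSs, in the 4 conditions (horizontal axis, Oc for osteocyte); grey is the sum of the members not named. Timp3 (green, left panel) grew from 9.28% to 25.2% of the TIMP sum in MSCs, and Mmp13 (green, middle panel) is visible in osteocytes only.

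Differences between conditions were tested with edgeR's quasi-likelihood test on all 16484 genes that passed the minimum. FDR is the Benjamini-Hochberg adjusted p over all of them. Genes counted as called when the FDR was below 0.05 and the log2 fold change lay outside -1 to 1. CPM are library-scaled counts, corrected with TMM factors. For a single gene, an exact two-sided permutation test of 3 against 3 libraries cannot give a p under 0.1. In MSCs FG-4592 left 1 member called higher (background 4.12% of all genes tested) and 4 called lower (background 5.17%). In osteocytes 5 were called higher (background 6.25%), of which 2, Mmp13 and Timp3, had not passed the count minimum through treated libraries alone, and 3 lower (background 4.26%). With the FDR alone, 5 members rose and 15 fell in MSCs, where 17.6% and 20.4% of all genes did. In osteocytes 8 rose and 15 fell, where 21.9% and 22% did. The 8 include Adamts13, Adamtsl1 and Mmp27, which had passed the count minimum through treated libraries alone. The median log2 fold change of the members was -0.20 in MSCs and -0.36 in osteocytes, and that of all genes tested -0.045 and 0.0015. Under the FDR, 11 members fell in both cell types (background 11.2% of all genes) and 2, Timp1 and Timp3, rose in both (background 11.3%). Both comparisons were made within 1 fit.

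**Figure D2:**
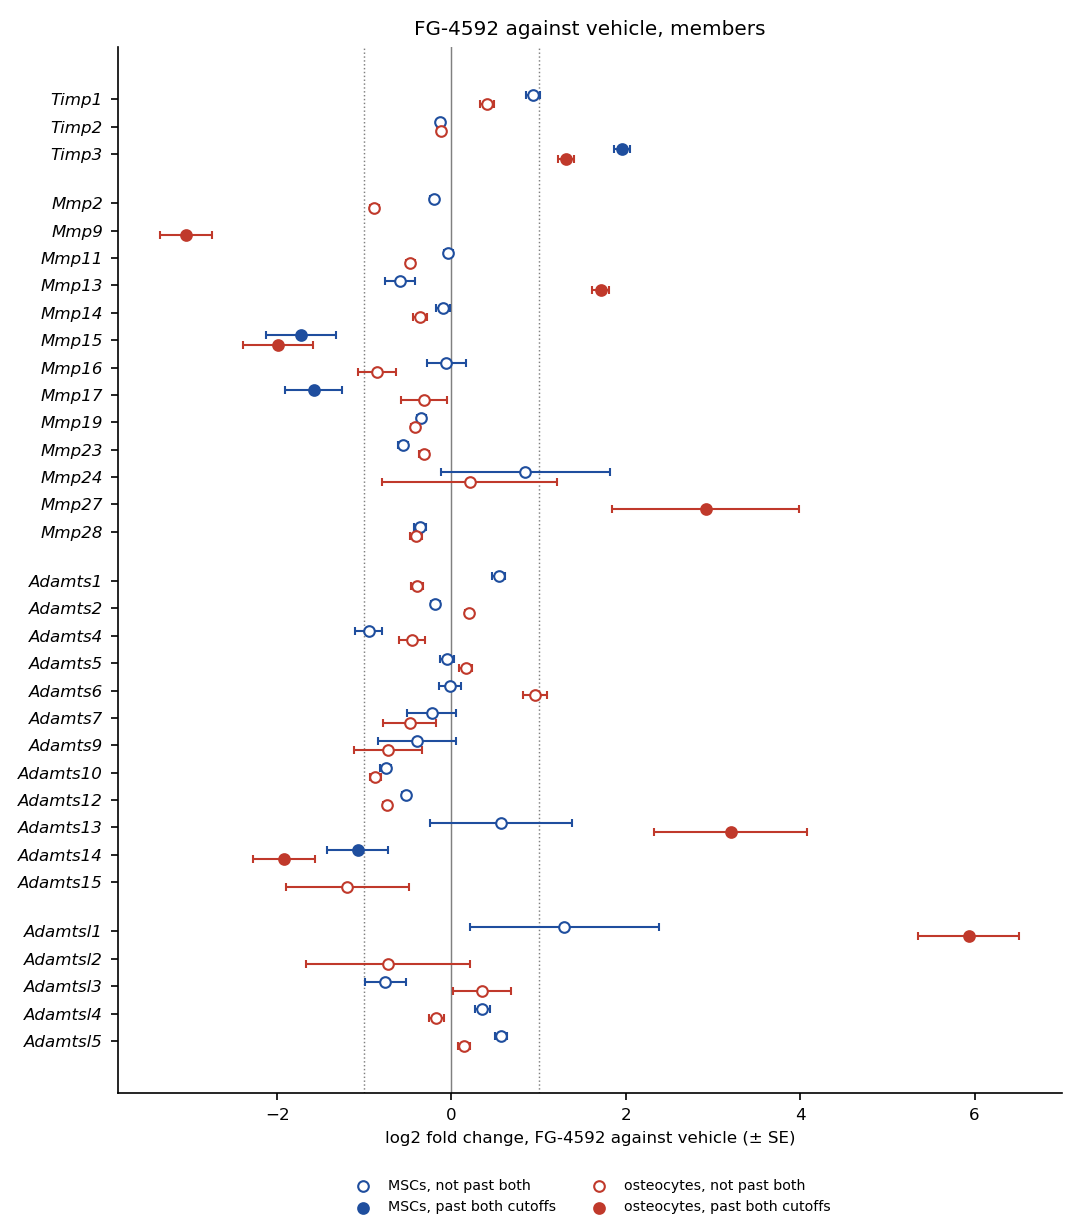
Log2 fold change of FG-4592 against vehicle (horizontal axis, ± SE) for each member (vertical axis, by class) in MSCs (blue) and osteocytes (red); filled points passed both cutoffs and dotted lines mark a change of 1. Timp3 lies to the right and Mmp15 and Adamts14 to the left in both cell types, while Mmp13 lies on opposite sides. In MSCs, 4 members with at most 3 counts over a condition are not drawn.

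The 3 inhibitors tested changed to different extents. Timp3, which binds to the matrix itself and also inhibits several ADAMTS proteases, measured 504, 478 and 471 CPM in vehicle-treated MSCs and 1856, 1845 and 1931 CPM after FG-4592. In osteocytes it measured 754, 673 and 701 CPM with vehicle and 1663, 2130.2 and 1489.6 CPM with FG-4592. No treated library overlapped a vehicle library in either cell type, and the treated osteocytes spread the most. Timp3 rose 3.88-fold in MSCs (log2 fold change 1.95 ± 0.09 (SE), FDR = 1.03e-10) and 2.48-fold in osteocytes (log2 fold change 1.31 ± 0.09 (SE), FDR = 8.24e-09). The rise was smaller in osteocytes by 0.64 on the log2 scale, an interaction that passed the FDR (FDR = 0.00166) but not the cutoff on size. Timp3 shares 1733 exonic bases with Syn3, which averaged 27.1 counts over the 12 libraries.

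Timp1, a soluble inhibitor of most MMPs, stood at 145, 141 and 124 CPM in vehicle-treated and 287, 248 and 247 CPM in FG-4592-treated MSCs. Its osteocyte libraries gave 114, 135 and 141 CPM with vehicle and 177, 171 and 169.9 CPM with FG-4592. The treated libraries lay above the vehicle libraries in both cell types. Timp1 rose by 0.93 ± 0.08 (SE) in MSCs and by 0.41 ± 0.08 in osteocytes on the log2 scale (FDR = 1.19e-07 and 5.25e-04), under the cutoff on size in both, and the responses differed (FDR = 0.00282). Without vehicle-treated MSC replicate 1 its change in MSCs was 1.00 and was called.

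Timp2, which both inhibits MMP2 and helps MMP14 to activate it, measured 1641, 1745 and 1614 CPM in vehicle-treated and 1495, 1554 and 1529 CPM in treated MSCs. In osteocytes it measured 1536, 1485 and 1414 CPM with vehicle and 1399, 1342 and 1348 CPM with FG-4592. The treated libraries lay just below the vehicle libraries in both. It changed the least of the 3 inhibitors tested, with log2 fold changes of -0.13 (FDR = 0.0318) and -0.12 (FDR = 0.0409), and over the alternative settings its FDR reached 0.364 and 0.107. Timp4 had 3, 14 and 0 counts in vehicle-treated MSCs, 1, 5 and 0 in treated MSCs, 0, 1 and 0 in vehicle-treated osteocytes and 0, 14 and 0 in treated osteocytes, and was not tested.

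**Figure D3:**
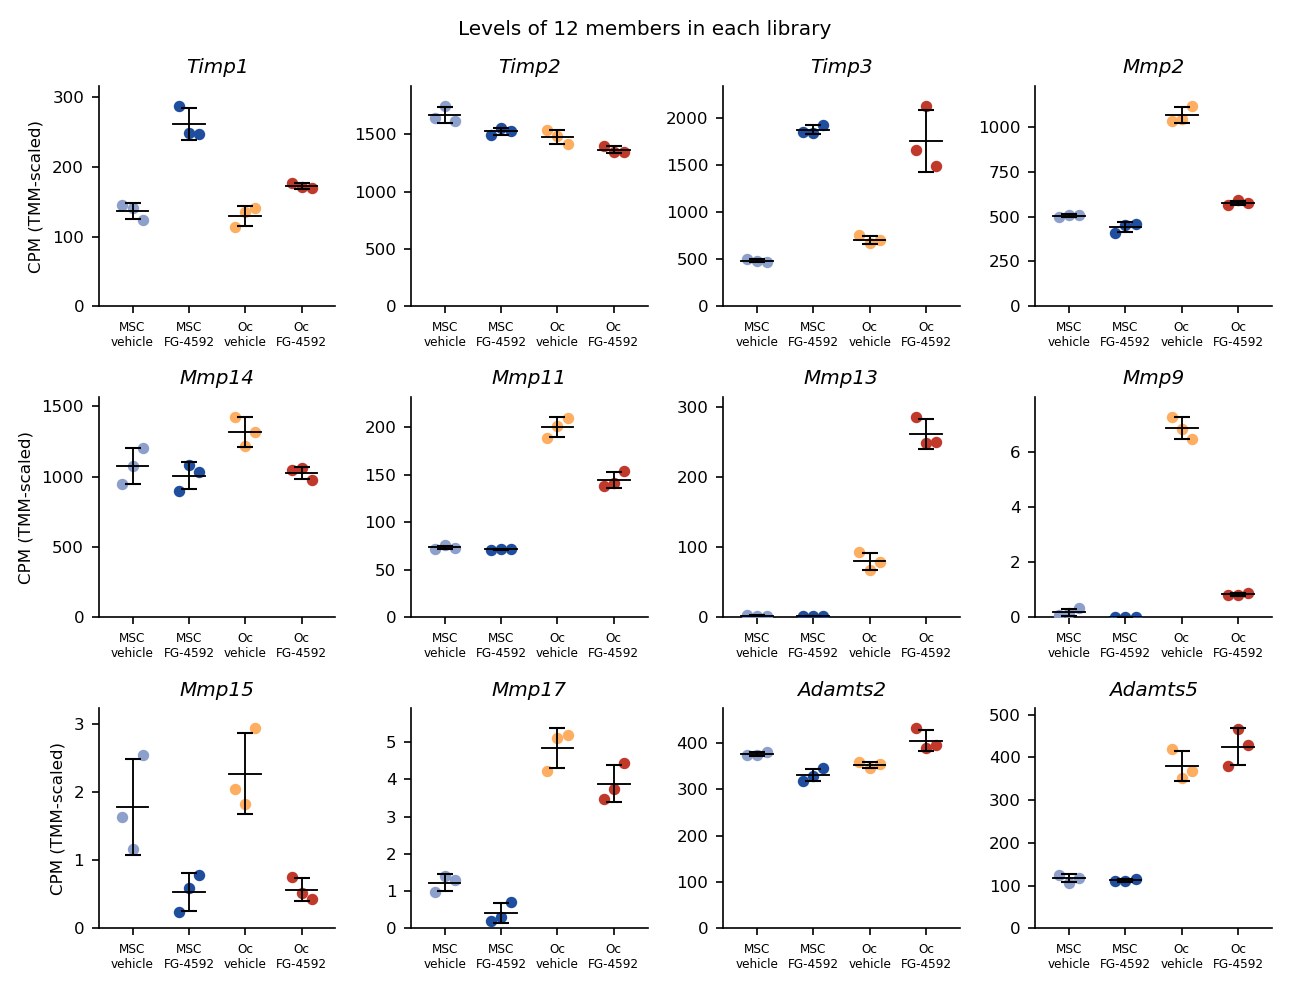
TMM-scaled CPM (vertical axes, from 0) of 12 members in each of the 12 libraries (points) by condition (horizontal axis, Oc for osteocyte), with mean and SD as lines. Timp3 is higher with FG-4592 in both cell types, Mmp13 rises from its osteocyte level, and Mmp9 and Mmp15 are lower with FG-4592 in both.

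Among the collagenases and gelatinases, Mmp13, the collagenase typical of hypertrophic cartilage and bone, moved in opposite directions. It was at 2.81, 2.27 and 1.92 CPM in vehicle-treated MSCs and 1.71, 1.43 and 1.5 CPM in treated ones. In osteocytes it was at 92.5, 68.1 and 79 CPM with vehicle and 286, 249 and 250.2 CPM with FG-4592. The conditions did not overlap in either cell type, and even the lowest osteocyte library was far above every MSC library. FG-4592 raised it 3.28-fold in osteocytes (log2 fold change 1.71 ± 0.10 (SE), FDR = 8.58e-10). In MSCs it fell by 0.59 ± 0.17 (SE) on the log2 scale (FDR = 0.0137), which was not past the cutoff on size and was lost to an FDR of up to 0.0933 under other settings. The responses differed by 2.30 ± 0.20 (SE, FDR = 5.88e-07), and this difference was called in all 20 fits, the reported one included. Of the chondrocyte markers, Sox9 and Col2a1 were also called higher in treated osteocytes, with a list sum of 68.1 to 81.4 TPM with vehicle and 206 to 226 TPM with FG-4592, while Acan and Matn1 stayed near 0. In MSCs the list sum was 77.3 to 86.6 TPM with vehicle and 132 to 141 TPM with FG-4592, and none of its members was called. Between vehicle-treated osteocytes and MSCs, Col2a1 was called higher (log2 difference 6.32 ± 0.19 (SE), FDR = 2.14e-13) and Col10a1 lower (-1.54 ± 0.33 (SE), FDR = 0.00104), beside the Mmp13 difference between the cell types. The part of this list in the Mmp13 results was not tested.

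Mmp9, a gelatinase prominent in osteoclasts, fell the furthest of the members with a mean over 100 counts. Its osteocyte libraries had 482, 380 and 398 counts with vehicle (7.26, 6.83 and 6.47 CPM) and 52, 49 and 54 counts with FG-4592 (0.8, 0.801 and 0.891 CPM). No library overlapped, and the level fell 8.23-fold (log2 fold change -3.04 ± 0.30 (SE), FDR = 3.89e-07). In MSCs it had 4, 9 and 21 counts with vehicle and 0, 1 and 0 with FG-4592, a ratio of summed counts at equal library size of 36.3 (exact 95% interval 6.09 to 1476), counting error only. This fall was called too (FDR = 2.45e-04), with a fitted change of -4.71 that was -3.95 without vehicle-treated MSC replicate 3 and -6.54 without treated MSC replicate 2, called in each case, and the difference between the responses was not (FDR = 0.25). Of 10 macrophage and osteoclast markers, Adgre1 and Calcr were at 0 in every library, and Ptprc stayed at or under 0.0285 TPM. None of the 5 markers tested was called after FG-4592, and the list summed to 136 to 151 TPM in vehicle-treated and 86.6 to 89.6 TPM in treated osteocytes, most of it Ctsk. In MSCs the list summed to 67.5 to 72.4 TPM with vehicle and 64.9 to 75.2 TPM with FG-4592.

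Mmp2, the other gelatinase, was at 497, 511 and 511 CPM in vehicle-treated MSCs and 411, 451 and 461 CPM in treated MSCs. Vehicle-treated osteocytes had 1033, 1045 and 1117 CPM and treated osteocytes 564, 591 and 575 CPM. Neither pair overlapped. The fall in osteocytes was 1.85-fold (log2 fold change -0.89 ± 0.05 (SE), FDR = 4.97e-10), just short of the cutoff on size, against -0.20 ± 0.05 (SE) in MSCs, and the responses differed (FDR = 3.31e-06).

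The 4 membrane-type MMPs with a transmembrane segment (Mmp14, Mmp15, Mmp16 and Mmp24) and Mmp17, held by a lipid anchor, were measured. Mmp14 activates proMMP2 at the cell surface and was by far the most abundant of them, at 946, 1079 and 1203 CPM in vehicle-treated and 898, 1086 and 1034 CPM in treated MSCs. Osteocytes had 1424, 1214 and 1319 CPM with vehicle and 1045, 1058 and 977 CPM with FG-4592. The MSC conditions overlapped (FDR = 0.397), and in osteocytes Mmp14 fell by 0.36 on the log2 scale (FDR = 0.00212).

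Mmp15 was low and fell in both cell types, with 1.63, 1.17 and 2.55 CPM in vehicle-treated and 0.235, 0.596 and 0.781 CPM in treated MSCs. The osteocyte libraries gave 2.05, 1.83 and 2.94 CPM with vehicle and 0.754, 0.523 and 0.429 CPM with FG-4592. Every treated library lay under every vehicle library of its cell type. The fall was 3.3-fold in MSCs (log2 fold change -1.72 ± 0.40 (SE), FDR = 0.00273) and 3.98-fold in osteocytes (log2 fold change -1.99 ± 0.40 (SE), FDR = 6.67e-04). Both were called in all 21 fits, the reported one included.

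Mmp17 was at 0.962, 1.4 and 1.29 CPM in vehicle-treated and 0.201, 0.313 and 0.703 CPM in treated MSCs, where it fell 2.99-fold (log2 fold change -1.58 ± 0.33 (SE), FDR = 0.00109, and -2.23 without treated MSC replicate 3). In osteocytes, with 4.22, 5.1 and 5.19 CPM under vehicle and 3.46, 3.74 and 4.42 CPM under FG-4592, the conditions overlapped (log2 fold change -0.32, FDR = 0.364). The difference between the responses was called at 1.26 ± 0.42 (SE, FDR = 0.0393), but the call was lost when any of 10 of the 12 libraries was left out, the FDR then reaching 0.105. Mmp16 fell in osteocytes by 0.86 on the log2 scale (FDR = 0.0044) and had an FDR of 0.869 in MSCs. Mmp24 passed the FDR in neither, and it shares 637 exonic bases with BC029722, which averaged 3447 counts over the 12 libraries against 7.33 for Mmp24.

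Of the remaining MMPs, Mmp11, Mmp19, Mmp23 and Mmp28 fell under the FDR in at least 1 cell type, none past the cutoff on size. Mmp11, a furin-activated enzyme of stromal cells, gave 71.9, 75.6 and 72.8 CPM in vehicle-treated and 70.9, 72.2 and 71.7 CPM in treated MSCs, which overlapped. In osteocytes it gave 189, 202 and 209.7 CPM with vehicle and 138, 142 and 153 CPM with FG-4592, without overlap. It fell in osteocytes (log2 fold change -0.47, FDR = 1.53e-06) and the responses differed (FDR = 4.22e-04). Mmp23, an unusual MMP without the common hemopexin domain, measured 78.1, 71.9 and 71.5 CPM in vehicle-treated and 48.2, 52.3 and 50.4 CPM in treated MSCs. In osteocytes Mmp23 measured 50.3, 55.8 and 57 CPM with vehicle and 43, 42.7 and 45.3 CPM with FG-4592. Mmp19, a widely expressed enzyme with basement membrane substrates, measured 74.3, 72.4 and 74 CPM in vehicle-treated and 59.8, 56.4 and 57.7 CPM in treated MSCs. Both genes fell in both cell types without overlap. In osteocytes Mmp19 measured 78, 84.5 and 80.2 CPM with vehicle and 63.3, 58.9 and 60.1 CPM with FG-4592. On the log2 scale, MSCs and osteocytes changed by -0.55 and -0.32 for Mmp23, -0.34 and -0.41 for Mmp19, and -0.37 and -0.41 for Mmp28, with FDRs of at most 5.55e-04. Mmp19 shares 1001 exonic bases with other genes, the most abundant of which averaged 1323 counts over the 12 libraries against 4197 for Mmp19.

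Mmp27 was named after its values were seen. It had 7, 0 and 0 counts in vehicle-treated and 27, 14 and 14 counts in treated osteocytes. In MSCs it had 0, 4 and 1 counts with vehicle and 0, 0 and 0 with FG-4592. It passed the count minimum through treated osteocytes alone, so that its call there (log2 fold change 2.92 ± 1.08 (SE), FDR = 0.0408) is given as a description. The call was lost in 8 of 21 fits, the reported one included, for example without treated osteocyte replicate 1 (FDR = 0.123) and with DESeq2. Without vehicle-treated osteocyte replicate 1, the one with counts in that condition, the fitted change was 7.17. Mmp27 (chr9:7571396-7581885) lies near Mmp13 (chr9:7272514-7283331), and Mmp12, Mmp1b, Mmp3, Mmp10 and Mmp8 lie between them. These 5, also named after their values were seen, were under the count minimum and were not tested. In treated osteocytes Mmp12 had 0, 0 and 0 counts, Mmp1b 0, 0 and 0 and Mmp10 1, 0 and 0. Mmp3 had 1, 0 and 0 counts in vehicle-treated and 7, 8 and 17 in treated osteocytes, and Mmp8 1, 0 and 1 and 14, 6 and 16.

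Of the 12 ADAMTS proteases, 1 was called lower in both cell types (Adamts14, where 1.55% of all genes were). Adamts13, the 1 called higher in osteocytes, passed the count minimum through treated libraries alone and is only described. Adamts2, which removes the amino-terminal propeptide of fibrillar procollagens, was the most abundant, at 374, 373 and 381 CPM in vehicle-treated and 319, 329.8 and 345 CPM in treated MSCs. In osteocytes it stood at 359, 346 and 355 CPM with vehicle and 432, 389 and 395 CPM with FG-4592. It fell by 0.18 in MSCs (FDR = 0.00666) and rose by 0.20 in osteocytes (FDR = 0.00318) on the log2 scale, with no overlap in either cell type, and the responses differed (FDR = 6.85e-04). These small shifts kept their directions in every alternative fit, but the FDR reached 0.0706 in MSCs and 0.121 in osteocytes. Adamts14, a relative with the same kind of substrate, was named after its values were seen. It had 70, 65 and 45 counts in vehicle-treated and 28, 27 and 37 in treated MSCs (log2 fold change -1.07 ± 0.35 (SE), FDR = 0.0236). In osteocytes it had 109, 77 and 105 counts with vehicle and 39, 16 and 23 with FG-4592 (log2 fold change -1.92 ± 0.35 (SE), FDR = 3.16e-04). The conditions did not overlap in either cell type. The call in MSCs was lost without any 1 of 4 libraries of that comparison, the change then lying between -0.86 and -1.06.

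Of the aggrecan- and versican-cleaving proteases, Adamts5 was the most abundant, at 126, 107 and 118 CPM in vehicle-treated and 112, 109.9 and 116 CPM in treated MSCs. In osteocytes it was at 420.1, 352 and 369 CPM with vehicle and 381, 467 and 428 CPM with FG-4592. Vehicle and treated libraries overlapped in both cell types (FDR = 0.646 and 0.11). Adamts4, an aggrecanase named after its values were seen, fell in both cell types under the FDR, with 8.9, 7.6 and 9.76 CPM in vehicle-treated and 5.42, 4.63 and 3.54 CPM in treated MSCs (log2 fold change -0.95 ± 0.15 (SE), FDR = 1.07e-04). In osteocytes Adamts4 gave 10.1, 8.86 and 8.34 CPM with vehicle and 7, 5.88 and 7.05 CPM with FG-4592 (log2 fold change -0.45 ± 0.15 (SE), FDR = 0.0207). The conditions did not overlap, but Adamts4 passed the cutoff on size in MSCs in only 3 of 21 fits, the reported one included. Its FDR in osteocytes reached 0.09, and its counts are uncertain, since a read pair could be counted for more than 1 gene. The chromosomal neighbour of Adamts5, Adamts1, named after its values were seen, went opposite ways under the FDR, up in MSCs (log2 fold change 0.54, FDR = 1.69e-05) and down in osteocytes (-0.39, FDR = 2.42e-04), and the responses differed by -0.93 (FDR = 6.07e-06), just under the cutoff on size. Adamts9 and Adamts15 did not pass the FDR in either cell type. Acan, which encodes aggrecan, reached at most 0.0236 TPM in any library, while Vcan, which encodes versican, ranged from 161 to 169 TPM in vehicle-treated MSCs and 37.9 to 43.2 TPM in vehicle-treated osteocytes.

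Adamts10, which binds fibrillin microfibrils, and Adamts12, which cleaves COMP, also fell in both cell types under the FDR, by log2 values of -0.75 and -0.87 for Adamts10 and -0.52 and -0.74 for Adamts12. Adamts6 moved in osteocytes alone under the FDR, rising by 0.96 (FDR = 2.33e-05) with a difference between the responses of 0.98 (FDR = 0.00121). Adamts13, whose protein cleaves von Willebrand factor and which was named after its values were seen, had 0, 2 and 5 counts in vehicle-treated and 39, 9 and 22 in treated osteocytes. It passed the count minimum through treated libraries alone, so that its call as higher there (log2 fold change 3.20 ± 0.88 (SE), FDR = 0.00721) is given as a description. Without vehicle-treated osteocyte replicate 1 or 3 the change was 2.59 or 4.30, at a mean of 0.271 TPM in treated osteocytes. Adamts7 did not pass the FDR in either cell type.

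The ADAMTS-like gene Adamtsl1 was all but silent outside treated osteocytes. It had 0, 0 and 4 counts in vehicle-treated MSCs, 4, 7 and 0 in treated MSCs and 2, 4 and 9 in vehicle-treated osteocytes, against 380, 249 and 332 in treated osteocytes (5.85, 4.07 and 5.48 CPM). It passed the count minimum through treated osteocytes alone, so that the following is a description of a gene admitted by that group. Its level there was 61.1-fold that of vehicle (log2 fold change 5.93 ± 0.58 (SE), FDR = 3.8e-07), and the log2 fold change was 6.62 without vehicle-treated osteocyte replicate 3. Its mean in treated osteocytes was 1.45 TPM. The difference from the MSC response was called (4.64 ± 1.63 (SE), FDR = 0.0497) and rested on single libraries: without vehicle-treated MSC replicate 3, the one with counts in that condition, it was 1.04 (FDR = 0.838). Adamtsl4 and Adamtsl5, the abundant members of this class, rose in MSCs by 0.35 and 0.57 on the log2 scale (FDR = 0.00344 and 5.19e-06) and did not pass the FDR in osteocytes (FDR = 0.114 and 0.0957). The response of both differed between the cell types under the FDR (FDR = 0.00436 and 0.0043). Adamtsl3 fell in MSCs by 0.76 (FDR = 0.0162), an FDR that reached 0.0657 under other settings.

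For the difference between the responses over all members, 3 were called higher in osteocytes (Adamtsl1, which passed the count minimum through treated osteocytes alone, Mmp13 and Mmp17, background 3.94% of genes tested) and 0 lower (background 1.07%) by edgeR, where DESeq2 also called 0 lower. With the FDR alone 5 were higher (background 13.3%) and 8 lower (background 11%). At an unadjusted p under 0.05, 10 were higher (background 19.4%) and 10 lower (background 15.9%). The 5 include Adamtsl1, and the 10 higher include Adamts13, Adamtsl1 and Mmp27, which all passed the count minimum through treated libraries alone. DESeq2 and the likelihood ratio test called 5 higher, adding Adamtsl3 and Mmp27. Of the called ones, only Mmp13 kept its call without each library in turn.

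Of the 33 members, 17 were called in at least 1 comparison of osteocytes with MSCs (background 23% of all genes). In at least 1 comparison of FG-4592 with vehicle, 9 were called (background 15.3%). The 17 include Adamts15, Adamtsl1, Adamtsl2, Mmp27 and Mmp9, and the 9 include Adamts13, Adamtsl1 and Mmp27. These would not have passed the count minimum without the group in which they were called higher, so that both counts are a description. In vehicle-treated cells, 11 members were called higher in osteocytes than in MSCs (background 9.83%) and 3 lower (background 6.08%), and with FG-4592 11 were higher (background 12.6%) and 3 lower (background 5.64%). Without the members that passed the count minimum through osteocytes alone, 9 were higher with vehicle and 7 with FG-4592. Both counts still hold Mmp9, which exceeded the minimum in 6 osteocyte libraries and only 1 MSC library. The same 12 libraries serve here and in the drug comparisons, so that these comparisons are not independent. The median log2 difference was 0.38 with vehicle and 0.29 with FG-4592, and that of all genes tested -0.0064 and 0.0316. None of the TIMPs was called in either comparison.

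Mmp9 and Mmp13 had the widest differences among the members with more than 3 counts in each vehicle condition. For Mmp9 the direction follows from its admission, since it would not have passed the count minimum without the osteocyte libraries. Mmp13 was 34.4-fold higher in vehicle-treated osteocytes (log2 fold change 5.10 ± 0.13 (SE), FDR = 2.76e-14) and 169.5-fold higher with FG-4592 (log2 fold change 7.40 ± 0.14 (SE), FDR = 5.89e-16). Mmp9 was 36-fold higher with vehicle (FDR = 4.04e-09), a log2 difference of 5.17 that was 5.94 without vehicle-treated MSC replicate 3, and with FG-4592, where MSCs had 1 count, the ratio was 158 (exact 95% interval 28 to 6295). Mmp17 (1.98), Adamts5 (1.70), Adamts1 (1.67), Mmp11 (1.45) and Mmp2 (1.07) were also called with vehicle, each on the log2 scale. With FG-4592 Mmp2 and Adamts1 were no longer past the cutoff on size, at 0.39 and 0.74, and Mmp11 stood at 1.01, a call that library size alone (0.96), DESeq2 and the removal of any 1 of 7 libraries undid (lowest 0.97, without treated osteocyte replicate 3). Adamts10 (1.52 and 1.40), Adamts9 (2.36 and 2.03), Adamts5 (1.92 with FG-4592) and Mmp17 (3.24 with FG-4592) were called higher under both treatments. Adamts9 under FG-4592 was at 2.89 without treated MSC replicate 2, and Mmp17 at 3.89 without treated MSC replicate 3. With FG-4592 Adamtsl1 (6.43, and 7.22 without treated MSC replicate 2) and Mmp27, at least 18.7-fold higher with a floor of 3 counts over the condition, were called higher as well, both admitted through treated osteocytes alone.

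Adamts15, an aggrecan- and versican-cleaving protease, and Adamtsl2, a microfibril-binding protein, were called higher in osteocytes too, a direction that follows from their having passed the count minimum through osteocyte libraries alone. Both were near 0 in MSCs, where Adamts15 had 0, 1 and 0 counts with vehicle and 0, 0 and 0 with FG-4592 against 22, 17 and 27 and 10, 3 and 16 in osteocytes. Adamtsl2 had 0, 0 and 0 counts in vehicle-treated MSCs and 4, 11 and 11 in vehicle-treated osteocytes, at least 8.43-fold higher with the same floor. Its call with FG-4592 was lost without treated osteocyte replicate 2 (log2 difference 1.85, FDR = 0.342) and without each of 5 other libraries.

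Lower in osteocytes were Adamtsl3, at 4.76 to 4.94 CPM in vehicle-treated MSCs and 0.163 to 0.406 CPM in vehicle-treated osteocytes (log2 fold change -4.21 ± 0.29 (SE), FDR = 4.59e-09), and Adamts6 and Adamts7. Adamts6 (-1.13) was not called without vehicle-treated osteocyte replicate 3 (-0.97), and Adamts7 (-1.01) lost its call without any 1 of 4 libraries, the value then reaching -0.71. With FG-4592 Adamtsl3 (-3.10), Adamts7 (-1.26) and Adamtsl4 (-1.17) were called lower. Adamts7 shares 122 exonic bases with Tbc1d2b, which averaged 10679 counts over the 12 libraries against 134 for Adamts7.

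**Figure D4:**
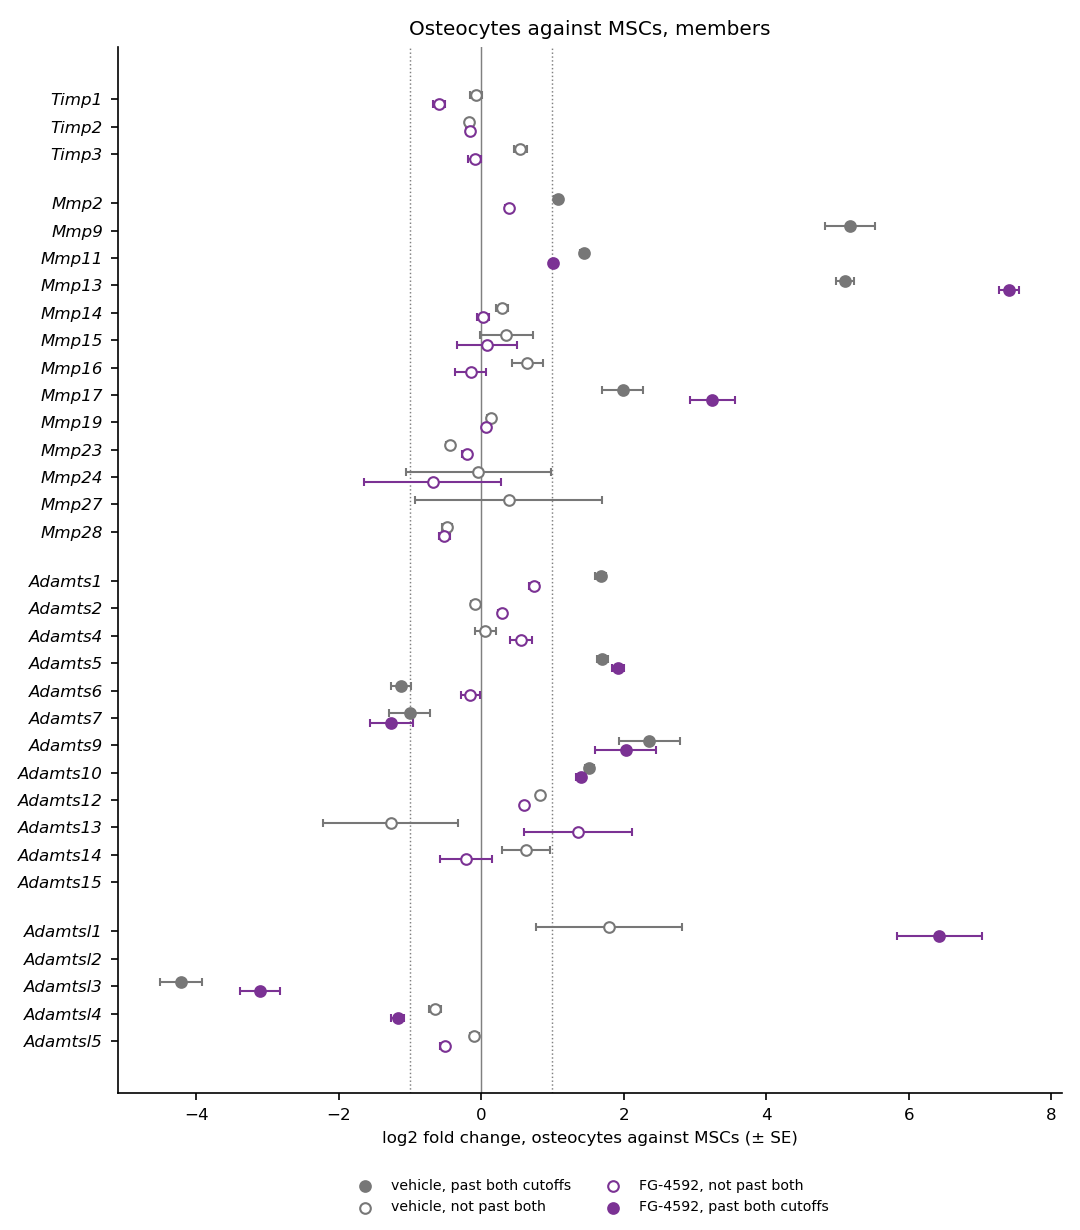
Log2 difference of osteocytes against MSCs (horizontal axis, ± SE) for each member (vertical axis, by class) with vehicle (grey) and with FG-4592 (purple); filled points passed both cutoffs and dotted lines mark a difference of 1. Mmp13 lies far to the right under both treatments and the TIMPs lie inside the dotted lines. Members with at most 3 counts over a condition are not drawn, 2 with vehicle and 4 with FG-4592.

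Among the markers, the macrophage and osteoclast list, whose Acp5, Ctsk and Mpeg1 were called higher and Csf1r lower in vehicle-treated osteocytes, summed to 67.5 to 72.4 TPM in vehicle-treated MSCs and 136 to 151 TPM in vehicle-treated osteocytes, beside the Mmp9 difference. The endothelial list never summed to more than 1.9 TPM, although 2 of its 4 genes, Tek and Pecam1, were called higher in vehicle-treated osteocytes (background 9.83%). With FG-4592, 4 of 8 osteoblast and osteocyte markers tested were called lower in MSCs (Alpl, Dmp1, Ibsp and Phex, background 5.17%). In osteocytes 4 were called lower (Bglap, Dmp1, Ibsp and Phex, background 4.26%). Nt5e was called lower in MSCs and Ly6a higher in osteocytes among the mesenchymal markers. Of the 4 adipocyte markers, Adipoq was called lower in MSCs (log2 fold change -1.44 ± 0.13 (SE), FDR = 2.5e-07) and Fabp4 higher in osteocytes (1.19 ± 0.12 (SE), FDR = 6.83e-07), with a list sum after FG-4592 of 10.5 to 11.5 TPM in MSCs and 3722 to 4444 TPM in osteocytes. The endothelial marker Tek was called higher in treated MSCs (2.03 ± 0.61 (SE), FDR = 0.0147). The part of these shifts in the protease results was not tested.

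Set against each other by transcript, the inhibitor and MMP sums lay in opposite directions from vehicle after FG-4592. Summed over the class, TIMPs came to 2484, 2489.8 and 2374 TPM in vehicle-treated MSCs and 3322, 3220.0 and 3365 TPM in treated MSCs. In osteocytes the TIMP sums were 2391, 2356 and 2282 TPM with vehicle and 2786, 2838 and 2569 TPM with FG-4592. The treated libraries lay above the vehicle libraries in both cell types, a description of sums without a test. The log2 ratio was 0.43 in MSCs and 0.22 in osteocytes, and 0.68 and 0.51 with CPM, which is not divided by gene length.

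MMPs summed to 1576, 1619 and 1765 TPM in vehicle-treated and 1249.7, 1414 and 1459 TPM in treated MSCs. Osteocyte MMPs summed to 2761, 2594 and 2717 TPM with vehicle and 2005, 1937 and 1896 TPM with FG-4592. Here the treated libraries lay below. In osteocytes the log2 ratio of the MMP sum was -0.47, and -0.16 without Mmp2. Mmp13 meanwhile went from 4.24% to 18.1% of the sum.

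ADAMTS sums were 279.9 ± 10.9 and 238 ± 13.1 TPM in vehicle- and FG-4592-treated MSCs, and 469 ± 17.8 and 418 ± 8.7 TPM in osteocytes (mean ± SD, n = 3). The osteocyte difference of -0.17 on the log2 scale was -0.042 with CPM. ADAMTSL sums were 109.9 ± 8.89, 137 ± 5.84, 78.7 ± 5.83 and 73.3 ± 7.08 TPM in the same order, and those of osteocytes overlapped.

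The ratio of summed TIMP to summed MMP and ADAMTS transcripts was 1.34, 1.32 and 1.16 in vehicle-treated and 2.24, 1.96 and 1.97 in treated MSCs. It was 0.736, 0.772 and 0.718 in vehicle-treated and 1.15, 1.2 and 1.11 in treated osteocytes. Vehicle-treated osteocytes had the lowest ratio of the 4 conditions and treated MSCs the highest. The log2 change with FG-4592 was 0.69 in MSCs and 0.64 in osteocytes, and the direction held with CPM. Without the most abundant member of each class it was 1.47 in MSCs and 0.90 in osteocytes. Transcripts were measured, not proteins or enzyme activity.

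**Figure D5:**
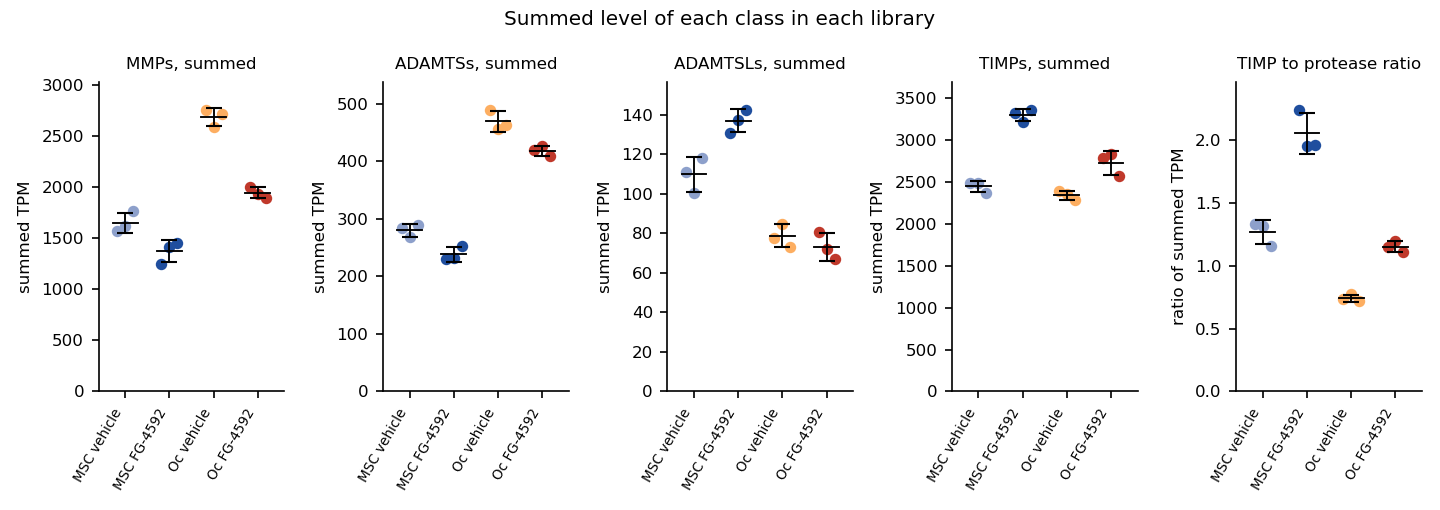
Summed TPM of MMPs, ADAMTSs, ADAMTSLs and TIMPs and the ratio of TIMPs to MMPs plus ADAMTSs (vertical axes, from 0) in each of the 12 libraries (points) by condition (horizontal axis, Oc for osteocyte), with mean and SD as lines. The ratio is higher with FG-4592 in both cell types, and each treated condition lies above its vehicle condition.

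Of 18 listed genes that activate, inhibit or clear these proteases, 14 were tested. A2m and Bsg were called higher in both cell types, Pcsk6 was called higher in osteocytes, and Serpine2 was called lower in MSCs. Of all genes tested, 4.12% were called higher and 5.17% lower in MSCs, and 6.25% and 4.26% in osteocytes. Bsg, which encodes basigin, an inducer of MMP synthesis, ranged from 739 to 769 TPM in vehicle-treated and from 3673 to 3867 TPM in treated MSCs (log2 fold change 2.42 ± 0.07 (SE), FDR = 7.59e-14). In osteocytes it ranged from 714 to 807 TPM with vehicle and from 8624 to 9922 TPM with FG-4592 (3.66 ± 0.07 (SE), FDR = 6.54e-16).

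A2m, which encodes the general protease trap alpha-2-macroglobulin, was at 0 in vehicle-treated MSCs and 1.13 to 1.51 TPM in treated MSCs, and at 0 to 0.0333 TPM and 12.9 to 17.8 TPM in osteocytes. Being at or near 0 in every vehicle library, A2m passed the count minimum through treated libraries, so that its calls as higher with FG-4592 are a description. The proprotein convertase Pcsk6, an activating enzyme, was at 23.2 to 33 TPM in vehicle-treated and 225 to 254 TPM in treated osteocytes and was called there (3.12 ± 0.10 (SE), FDR = 6.42e-13). In MSCs its range was 50.6 to 55.8 TPM with vehicle and 31.9 to 36.2 TPM with FG-4592, and it fell without passing the cutoff on size (-0.58 ± 0.10 (SE), FDR = 1.66e-04). The responses differed (3.70 ± 0.14 (SE), FDR = 8.9e-11). The response of Bsg differed between the cell types as well (log2 difference 1.24 ± 0.09 (SE), FDR = 6.8e-08). Reck, an anchored MMP inhibitor, rose in osteocytes without passing the cutoff on size (0.76 ± 0.07 (SE), FDR = 3.18e-07). Between cell types under vehicle, the 4 called (A2m, Lrp1, Papln and Serpine2) were higher in osteocytes (background 9.83%). The A2m call compares 0 TPM in MSCs with 0 to 0.0333 TPM in osteocytes, near 0 in both.

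Other metzincins, all 11 tested, gave 1 called higher (Tll1) and 1 lower (Adam12) in MSCs after FG-4592. In osteocytes they gave 2 higher (Adam19 and Adam23) and 1 lower (Adam12). Backgrounds were 4.12% higher and 5.17% lower in MSCs and 6.25% and 4.26% in osteocytes. Such small counts in short lists are given as a description. Adam12 was at 10.5 to 11.9 TPM in vehicle-treated and 3.1 to 3.53 TPM in treated MSCs, and at 29.5 to 29.9 and 10.1 to 10.2 TPM in osteocytes. Of 20 matrix substrates, 16 were tested. Against the same backgrounds, 1 was called lower (Comp) in MSCs and 2 higher (Col2a1 and Fn1) and 1 lower (Eln) in osteocytes. Col1a1 and Col1a2, the chains of type I collagen, were not called in any comparison. Comp, a cartilage protein cut by ADAMTS7 and ADAMTS12, was at 8.82 to 10.3 TPM in vehicle-treated osteocytes and 1.39 to 1.52 TPM in vehicle-treated MSCs.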

How the data were processed

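RNAseq counts of 12 libraries were used, in 4 groups taken from the sample labels. The authors aligned read pairs to mm10 with STAR 2.7.2a, assigned them to Gencode M22 genes with featureCounts (Subread 1.6.2, mapping quality 10 or higher, without strand) and deposited raw counts. A pair in 2 genes counted for both, so overlapping genes share reads. Genes whose count exceeded 10 in 3 or more libraries (16484 of 56350) were tested with edgeR 4.0.16 under R 4.3.3 (TMM factors, quasi-likelihood, 1 coefficient per condition, Benjamini-Hochberg over all genes). The script was tested on simulated data. TPM used the deposited gene lengths. A floor of 3 counts over a condition stands for 0, and intervals and floors cover counting error only. Same-numbered libraries did not deviate together (correlations from -0.135 to 0.0543), so numbers were not used as pairs. Alternatives were a likelihood ratio test, DESeq2 1.42.0, other scalings and filters, the replicate block, the 6 libraries compared, and each library left out. Libraries of a condition differed by more than sampling noise (chi-square per degree of freedom at least 9.88).

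Named with every library were all TIMPs, the 8 proteases of highest TPM, and members called after FG-4592 or in the difference of responses with a mean of at least 100 counts. Members, gene lists and markers were chosen with earlier results of these data known, and patterns already known are not independent support. Promoter windows came from RefSeq on GRCm38.p6. Protein sequences were not analysed here, and some genes are not reported here. Tables were made with Python 3.11.15 and pandas 2.3.3.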

Additional observations from a re-analysis of the deposited data

Results flagged for a closer look

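In 3 members the response to FG-4592 differed between osteocytes and MSCs by an interaction test past both cutoffs. The difference on the log2 scale was 2.30 for Mmp13, 4.64 for Adamtsl1 and 1.26 for Mmp17, each higher in osteocytes, and Adamtsl1 had passed the count minimum through treated osteocytes alone. Of 20 fits, the reported one included, that of Mmp13 was called in all, that of Adamtsl1 in 11 and that of Mmp17 in 10. No explanation was weighed.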

How the results depend on the processing

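Every call of Timp3, Mmp15 and Mmp9 with FG-4592, and that of Mmp13 in osteocytes, were made in all 21 fits, the reported one included. With CPM in place of TPM, the log2 ratios of sums were 0.68 (TIMPs) for FG-4592 in MSCs, and -0.0422 (ADAMTSs), 0.51 (TIMPs), -0.30 (MMPs plus ADAMTSs) and 0.80 (TIMP to protease ratio) for FG-4592 in osteocytes, and 0.60 (MMPs), 0.0189 (TIMPs) and -0.62 (TIMP to protease ratio) for osteocytes against MSCs with vehicle, and 0.35 (MMPs), -0.15 (TIMPs) and -0.66 (TIMP to protease ratio) for osteocytes against MSCs with FG-4592. Without the most abundant member of each class, the log2 ratios of sums were 1.21 (TIMPs) and 1.47 (TIMP to protease ratio) for FG-4592 in MSCs, and -0.16 (MMPs), -0.31 (ADAMTSs), 0.12 (ADAMTSLs), 0.73 (TIMPs), -0.18 (MMPs plus ADAMTSs) and 0.90 (TIMP to protease ratio) for FG-4592 in osteocytes, and 0.46 (MMPs), 1.37 (ADAMTSs), -0.19 (ADAMTSLs), 0.13 (TIMPs), 0.59 (MMPs plus ADAMTSs) and -0.46 (TIMP to protease ratio) for osteocytes against MSCs with vehicle, and 1.25 (ADAMTSs), -0.49 (ADAMTSLs), -0.36 (TIMPs) and -1.02 (TIMP to protease ratio) for osteocytes against MSCs with FG-4592. With TMM-scaled CPM per kilobase, chosen after seeing the data, the log2 ratios of sums were 0.51 (TIMPs) for FG-4592 in MSCs, and -0.38 (MMPs), -0.0757 (ADAMTSs), 0.31 (TIMPs) and -0.33 (MMPs plus ADAMTSs) for FG-4592 in osteocytes. The likelihood ratio test and DESeq2 each called 5 members higher in the difference between responses. With single libraries left out, members called higher in that difference ranged from 1 to 4 and members called lower from 0 to 1, members called higher in MSCs with FG-4592 from 1 to 2, and members called lower in vehicle-treated osteocytes against MSCs from 1, without vehicle-treated osteocyte replicate 3, to 3. Among the genes named with every library, uncalled log2 fold changes that changed sign without a single library ranged as follows: Adamts5 -0.0856 to 0.0262 (FG-4592 in MSCs), Mmp11 -0.0426 to 0.0144 (FG-4592 in MSCs), Mmp14 -0.16 to 0.0222 (FG-4592 in MSCs), Mmp14 -0.0457 to 0.0883 (osteocytes against MSCs with FG-4592), Mmp15 -0.67 to 0.0912 (the difference between responses), Mmp15 -0.27 to 0.44 (osteocytes against MSCs with FG-4592), Timp1 -0.0998 to 0.0513 (osteocytes against MSCs with vehicle), Timp2 -0.0722 to 0.0232 (the difference between responses) and Timp3 -0.25 to 0.0151 (osteocytes against MSCs with FG-4592). For the same genes, other settings turned the sign to -0.0211 for Mmp14 (osteocytes against MSCs with FG-4592, library size alone), -0.0113 for Timp2 (the difference between responses, RLE factors), -0.00377 for Timp2 (the difference between responses, library size alone) and -0.0113 for Timp2 (the difference between responses, DESeq2). With the replicate block the members called were 1 higher and 4 lower in MSCs, 4 higher and 3 lower in osteocytes, and 2 higher and 0 lower in the difference between responses, Mmp27 and Adamtsl1 being the ones lost, and the counts between cell types did not change. No same-numbered pair correlated over 0.1. The cause of these changes was not tested. Levels under the floor of 3 counts were not resolved at this depth.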
